A study of Mus musculus with 6 samples.

Results

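The genes described here encode NF-kB transcription factor subunits and the feedback inhibitors that restrain them, as measured in mouse CD4+ T cells under Th17 conditions with and without the CK2 inhibitor CX-4945. They were the rows of the deposited expression table named Nfkb1, Nfkb2, Rel, Rela and Relb (subunits) and Nfkbia, Nfkbie, Nfkbiz, Nfkbid and Tnfaip3 (grouped here as inhibitors). All 10 were found among 38924 gene rows, and all 10 passed the filter on low counts that left 12502 genes for testing. Naive CD4+ T cells from spleens of C57 BL/6 mice were grown for 72 h with antibodies to CD3 and CD28 and with IL-6, IL-23 and TGFb1, a mixture that drives differentiation into IL-17-producing Th17 cells. The 3 control cultures received the solvent DMSO, and the 3 treated cultures received CX-4945, an ATP-competitive CK2 inhibitor that also acts on CLK kinases. The labels write the dose as 2 mM, and no file allows a check of that unit. The deposit's design text gives 3 biological replicates per group. The labels describe the cells as enriched CD4+ T cells and name no mouse per culture. The spread behind every p-value is thus that between cultures, and whether they came from different mice is not stated. The deposited table numbers its libraries, and the controls are libraries 1, 3 and 5 while the treated ones are libraries 2, 4 and 6.

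NF-kB subunits bind DNA in pairs. The products of Nfkb1 and Nfkb2 are made as the long precursors p105 and p100 and are cut to p50 and p52, which bind DNA but lack a transactivation domain, whereas RelA, c-Rel (from Rel) and RelB carry one. In resting T cells IkB proteins hold the pairs in the cytoplasm. Signals from the T cell receptor, CD28 and receptors of the TNF and IL-1 families activate the IKK kinases, which mark IkB for destruction. The canonical route releases pairs of p50 with RelA or c-Rel, and the non-canonical route turns p100 into p52 and releases pairs of p52 with RelB. Several inhibitor genes are themselves NF-kB targets and close a feedback loop. The CK2 kinase is known to phosphorylate both RelA and IkB alpha, a change of protein that RNA levels do not show.

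Each library held between 22178614 and 26148189 exon reads with a unique place in the genome. The T cell markers Cd3d, Cd3e, Cd3g, Cd4, Cd5 and Lck summed to 2987 to 3189 CPM (counts per 1000000 reads after TMM scaling) with DMSO and to 2076 to 2136 CPM with CX-4945, and 5 of the 6 fell. The exception was Lck, the most abundant of them over all 6 libraries, with 715 ± 17.7 and 668 ± 25.1 CPM (SD, n = 3). Cd4, chosen after its values were seen, fell from 697 ± 68.7 to 346 ± 21.5 CPM. Markers of other cells were low. B cell markers summed to 11.2 to 19.3 CPM with DMSO and 12.7 to 13.7 with CX-4945. Dendritic cell markers summed to 7.76 to 8.81 and 4.34 to 7.51 CPM, with Siglech at 0 reads, and monocyte and macrophage markers to 11.8 to 18.2 and 17.6 to 32.0 CPM. CD8 T cell markers summed to 19.9 to 28.0 and 14.2 to 23.1 CPM, and NK cell markers to 0.46 to 0.68 and 0.84 to 1.50 CPM. Averaged over all 6 libraries, the most abundant monocyte, dendritic, CD8 and NK cell markers were Lyz2 (6.32 CPM with DMSO and 14.1 with CX-4945), Itgax (2.61 and 3.40 CPM), Cd8a (13.6 and 12.4 CPM) and Eomes (0.24 and 0.89 CPM). The part of these shifts in the results below was not tested, and in bulk RNA fewer cells of a type cannot be told apart from less RNA per cell. The genes of the inhibited kinase, Csnk2a1 and Csnk2a2 (catalytic) and Csnk2b (regulatory), had fold changes of 1.05, 0.982 and 1.10. Of the 3 only Csnk2b passed (edgeR adjusted p = 0.0345), a call lost without any single library other than DMSO library 1.

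Promoter sequence of 7 of the 10 genes was matched by symbol in RefSeq windows of GRCm38.p6, the assembly of mm10, each running from 250 bases before to 50 bases after a gene start. They were searched on both strands for the kB decamer, the 10-base consensus bound by NF-kB pairs, counting overlapping matches once as a stretch. Of these 7 genes 6 held the decamer in at least 1 window (Nfkb2, Nfkbia, Nfkbid, Nfkbie, Rel and Tnfaip3), and Rela did not. Among all genes with a window 5.14% held it. By window it stood in 8 of the 12 windows of these genes and in 4.51% of all 32851 windows. The Nfkb2 windows that start at 46305445 and 46305680 overlap and share a decamer, which counts in both. The windows of 4 genes that differ in their response are shown, with the decamers in capitals: Nfkb2 and Nfkbid rose, Tnfaip3 fell and Nfkbia did not pass the test. Their positions are chr19:46304487-46304786 (plus strand), chr7:30422156-30422455 (plus strand), chr10:19015361-19015660 (minus strand) and chr12:55492598-55492897 (minus strand). A match describes these letters and is neither a bound site nor a cause.
Nfkb2: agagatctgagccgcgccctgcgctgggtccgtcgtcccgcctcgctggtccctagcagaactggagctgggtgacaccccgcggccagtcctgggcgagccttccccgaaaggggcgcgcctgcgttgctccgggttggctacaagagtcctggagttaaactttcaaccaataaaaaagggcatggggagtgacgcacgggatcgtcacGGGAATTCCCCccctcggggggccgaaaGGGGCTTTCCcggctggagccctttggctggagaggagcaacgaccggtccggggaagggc
Nfkbid: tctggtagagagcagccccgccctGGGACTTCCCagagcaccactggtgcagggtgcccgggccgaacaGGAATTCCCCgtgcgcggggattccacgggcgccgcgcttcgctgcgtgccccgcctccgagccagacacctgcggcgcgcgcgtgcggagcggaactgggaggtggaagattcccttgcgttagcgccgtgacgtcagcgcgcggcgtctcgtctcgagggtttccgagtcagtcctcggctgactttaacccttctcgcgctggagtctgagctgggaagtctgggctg
Tnfaip3: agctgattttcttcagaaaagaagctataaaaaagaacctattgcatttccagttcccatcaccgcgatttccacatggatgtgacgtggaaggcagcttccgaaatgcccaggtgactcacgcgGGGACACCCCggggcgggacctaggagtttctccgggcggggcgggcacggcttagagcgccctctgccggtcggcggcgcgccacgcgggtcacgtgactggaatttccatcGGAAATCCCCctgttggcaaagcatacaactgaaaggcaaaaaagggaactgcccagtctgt
Nfkbia: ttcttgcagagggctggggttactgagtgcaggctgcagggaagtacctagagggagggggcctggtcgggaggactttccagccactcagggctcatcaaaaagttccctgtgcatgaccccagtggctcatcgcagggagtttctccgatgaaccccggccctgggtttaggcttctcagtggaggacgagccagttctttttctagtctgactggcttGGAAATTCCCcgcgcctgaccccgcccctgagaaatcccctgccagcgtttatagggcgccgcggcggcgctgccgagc
The Nfkb2 window holds a stretch with overlapping decamers that starts 39 bases before the gene start and another 11 bases before it. The Nfkbid window belongs to an inner start of the gene, and its decamers start 226 and 181 bases before that start. The start used for the Tnfaip3 window, at 19015410, also lies inside the span of its gene, which begins at 19015657 on the minus strand. Its decamers start 125 and 12 bases before that inner start, so they lie within the gene span. In Nfkbia the decamer starts 29 bases before the gene start. Among the windows shown, which were chosen from those with a decamer, it stands near the start used in Nfkb2, Tnfaip3 and Nfkbia. These rose, fell and did neither, and the call of Nfkb2 was lost without library 1, 2, 5 or 6.

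Some of the NF-kB genes rose and others fell with CX-4945. Of the 10 genes 4 rose (Nfkb1, Nfkb2, Relb and Nfkbid), 2 fell (Tnfaip3 and Nfkbiz) and 4 did not pass (Rela, Rel, Nfkbia and Nfkbie). Genes were called by the two-sided quasi-likelihood test of edgeR, at a Benjamini-Hochberg adjusted p under 0.05 over all genes tested. By the same rule 30.6% of all genes tested rose and 31.3% fell, together 61.9%, so that 6 of 10 is close to the share of all genes. When library 1, 2 or 6 was left out, 2 of the 10 rose rather than 4. The median size of a change was 0.23 on the log2 scale for the 10 genes and 0.35 for all genes tested. The levels of the groups did not overlap for 6 of the 10, the same genes that passed, beside 69.7% of all genes tested. In the authors' deposited table, whose test compares transformed expression values, none of the 10 had a corrected p under 0.05, and the smallest was 0.130 for Tnfaip3. The share of all genes passing that test was not computed here, so it cannot be told whether this is particular to the 10 genes.

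**Figure D1:**
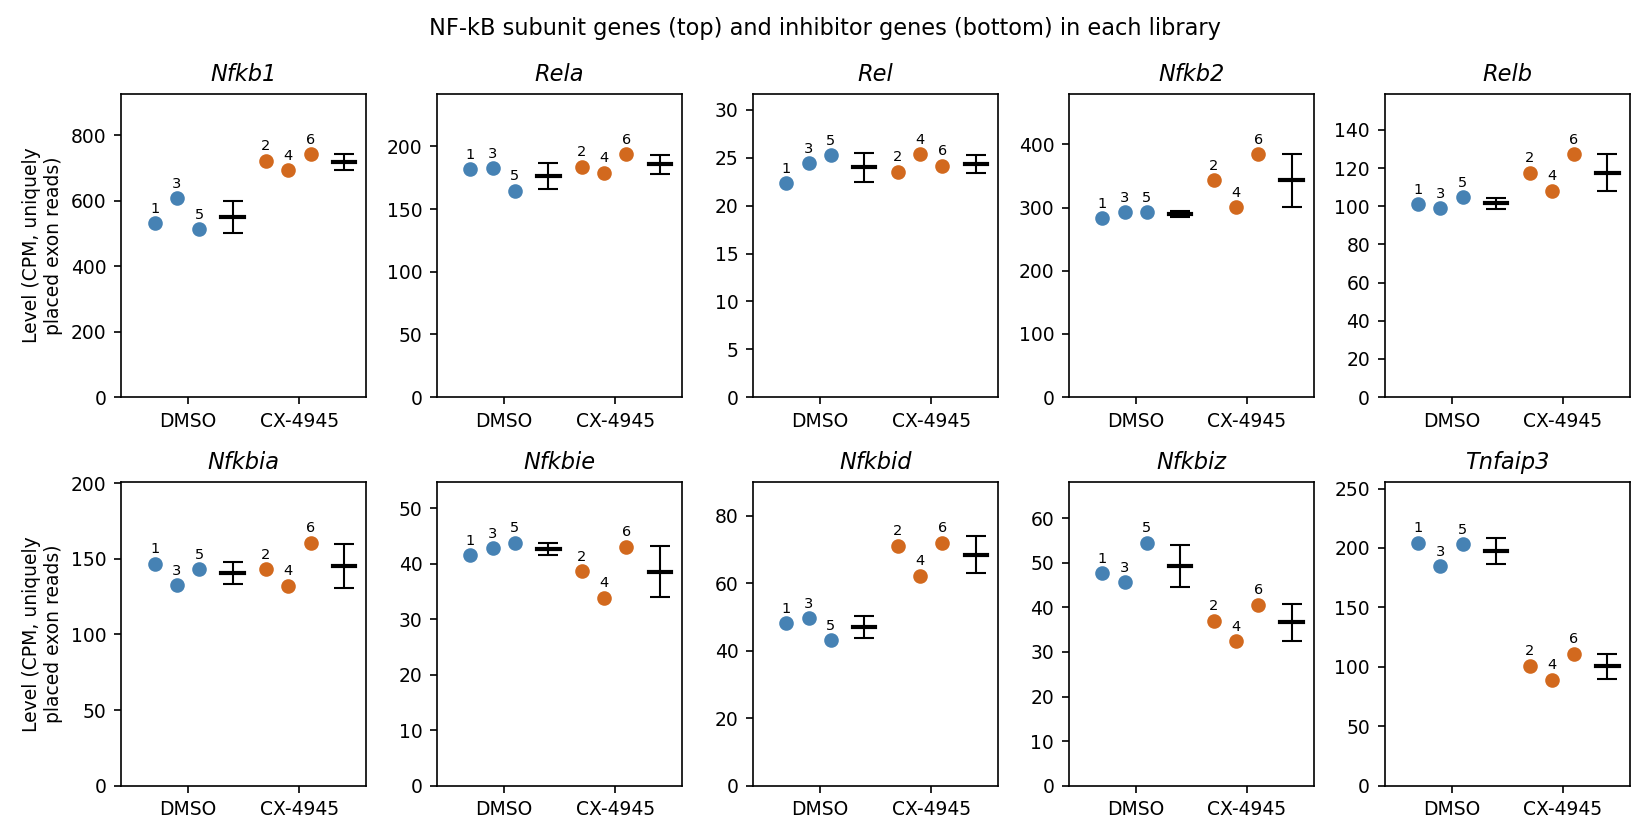
Level of each gene in CPM of uniquely placed exon reads (vertical axis, from 0) in each of the 6 libraries, marked by library number, with the group mean and SD beside the points. All 3 CX-4945 libraries lie above all DMSO libraries for Nfkb1, Nfkb2, Relb and Nfkbid and below them for Nfkbiz and Tnfaip3; Tnfaip3 went from 197 to 100.4 CPM on average.

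Among the canonical subunits the precursor gene Nfkb1 rose while Rela and Rel did not pass. Nfkb1 (chromosome 3, 135584655 to 135691547, mm10), the source of p105 and p50, had 532, 608 and 513 CPM in DMSO libraries 1, 3 and 5 and 723, 694 and 743 CPM in CX-4945 libraries 2, 4 and 6. The lowest CX-4945 value exceeds the highest DMSO value, found in library 3. The rise was 1.31-fold (95% confidence interval 1.17 to 1.47), a log2 fold change of 0.39 ± 0.07 (SE) with an edgeR adjusted p of 0.00197. Rela (chromosome 19, 5637483 to 5648130), the main transactivating subunit, had 182, 183 and 164.5 CPM with DMSO and 184, 179 and 194 CPM with CX-4945. The groups overlap, and the interval of the fold change, 0.957 to 1.16, holds no change as well as a small rise (edgeR adjusted p = 0.308). Rel (chromosome 11, 23741514 to 23770970) encodes c-Rel, a subunit of lymphocytes known to be needed for Foxp3 induction. It had 22.4, 24.4 and 25.3 CPM with DMSO and 23.5, 25.4 and 24.2 CPM with CX-4945. These ranges overlap for most of their length, and the interval of the fold change is 0.903 to 1.14 (edgeR adjusted p = 0.825). The gene model of Rel in the deposited table ends 4667 bases short of the span in the GENCODE M21 annotation, at the 3' side, so reads there were not counted for it.

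Both genes of the non-canonical pair rose, by less than Nfkb1. Nfkb2 (chromosome 19, 46304737 to 46312090), which encodes p100 and p52, had 284, 293 and 293 CPM with DMSO and 344, 301 and 385 CPM with CX-4945. The DMSO libraries lie within 10 CPM of each other, whereas CX-4945 library 4 stands just above them and library 6 far above. The rise was 1.18-fold (95% confidence interval 1.04 to 1.35, edgeR adjusted p = 0.0324). Relb (chromosome 7, 19606217 to 19629438), the partner of p52, had 101, 99.1 and 105 CPM with DMSO and 117, 108 and 127 CPM with CX-4945. The groups do not overlap, and library 4 is again the lowest and library 6 the highest of the treated libraries. The rise was 1.16-fold (95% confidence interval 1.04 to 1.29, edgeR adjusted p = 0.0232). Nfkb2 missed the threshold without library 1, 2, 5 or 6 (edgeR adjusted p 0.0527 to 0.104), and Relb missed the threshold without library 1, 2 or 6 (adjusted p 0.0665 to 0.0805). Within the deposited span of Nfkb2 its exons share 114 bases with the opposite-strand noncoding gene AC114539.1 and 4 bases with the opposite-strand gene Psd, and the strand setting of the counts is not given in the sources used here.

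The classical IkB genes did not pass. Nfkbia (chromosome 12, 55489411 to 55492647), which encodes IkB alpha, the fast feedback inhibitor, had 147, 133 and 143 CPM with DMSO and 143, 132 and 161 CPM with CX-4945. The groups overlap, with the lowest value of each within 1 CPM of the other. The interval of the fold change is 0.913 to 1.17 (edgeR adjusted p = 0.628). Nfkbie (chromosome 17, 45555716 to 45563169), which encodes IkB epsilon, a slower inhibitor, had 41.5, 42.7 and 43.8 CPM with DMSO and 38.6, 33.9 and 43.1 CPM with CX-4945. Libraries 2 and 4 lie below the DMSO values and library 6 among them. The interval of its fold change is 0.787 to 1.04 (edgeR adjusted p = 0.172). Without CX-4945 library 6 Nfkbie passed as lower (log2 fold change −0.23, adjusted p = 0.0375).

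The genes of the atypical, nuclear IkB proteins changed in opposite directions. Nfkbid (chromosome 7, 30421732 to 30428746) encodes IkBNS, which binds p50 in the nucleus and is known in mouse T cells to favour Foxp3 induction. It had 48.2, 49.6 and 43.2 CPM with DMSO and 71.2, 62.2 and 72.0 CPM with CX-4945. No DMSO library reaches the treated ones, and the rise was 1.46-fold (95% confidence interval 1.29 to 1.65, edgeR adjusted p = 0.00054), a log2 fold change of 0.54 ± 0.08 (SE). Nfkbiz (chromosome 16, 55811375 to 55838899) encodes IkB zeta, a coactivator known in mice to promote Th17 differentiation. It had 47.6, 45.6 and 54.5 CPM with DMSO and 37.0, 32.4 and 40.6 CPM with CX-4945. All treated libraries lie below all controls, 1.34-fold lower on average (95% confidence interval 1.15 to 1.57, edgeR adjusted p = 0.00586), a log2 fold change of −0.42 ± 0.10 (SE). The ratio of Nfkbid to Nfkbiz reads was 1.01, 1.09 and 0.793 in the DMSO libraries and 1.92, 1.92 and 1.77 in the CX-4945 libraries. These are ratios of reads, not of levels per length, and all treated ratios lie above all control ratios.

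Tnfaip3 had the largest change of the 10 genes. Tnfaip3 (chromosome 10, 19000910 to 19015657) encodes A20, a ubiquitin-editing enzyme that shuts off signalling from receptors and from the T cell receptor to IKK. It had 204, 185 and 203 CPM in DMSO libraries 1, 3 and 5 and 101, 89.2 and 111 CPM in CX-4945 libraries 2, 4 and 6. Every treated library is far below every control. The fall was 1.97-fold (95% confidence interval 1.72 to 2.24, log2 fold change −0.97 ± 0.08 SE, edgeR adjusted p = 5.00e-05), and it passed without any single library (adjusted p at most 0.000757). Nfkbia and Tnfaip3 are both feedback genes of the canonical route, and the ratio of Tnfaip3 to Nfkbia reads was 1.39, 1.39 and 1.42 in the DMSO libraries and 0.705, 0.675 and 0.690 in the CX-4945 libraries. The ratio varied little within a group, with an SD of 0.016 and 0.015, and the group means were 1.40 and 0.690.

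**Figure D2:**
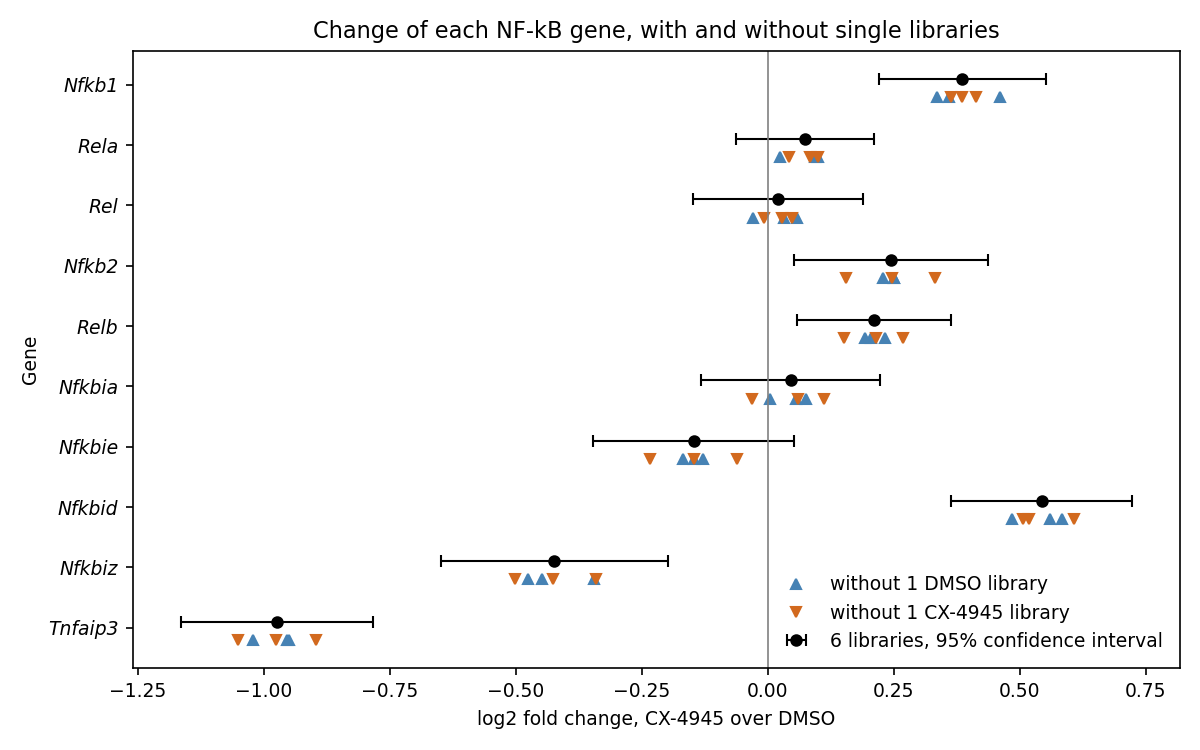
log2 fold change of CX-4945 over DMSO (horizontal axis) of each gene from all 6 libraries with its 95% confidence interval (black circles), and the value when 1 library is left out (triangles, up for a DMSO and down for a CX-4945 library). Tnfaip3 stays between −1.05 and −0.90 without any single library and Nfkbid between 0.49 and 0.61, while Rel and Nfkbia fall on both sides of 0.

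The levels per exon length place these transcripts in an order, in reads per kilobase of exon per 1000000 reads (RPKM). Exon lengths are those of the deposited gene models, so the order and the shares given below depend on those models. The model of Rel lacks 4667 bases of its GENCODE span at the 3' side, and its level is uncertain. With DMSO, Nfkb1 stood first at 115 ± 10.5 (SD, n = 3), followed by Nfkbia at 89.3 ± 4.66, Nfkb2 at 88.1 ± 1.58 and Rela at 64.9 ± 3.79. Nfkbia and Nfkb2 overlap between libraries. A lower tier held Tnfaip3 at 27.3 ± 1.52, Relb at 26.2 ± 0.74, Nfkbid at 20.0 ± 1.43 and Nfkbie at 17.6 ± 0.46, of which Tnfaip3 and Relb overlap. Nfkbiz at 9.81 ± 0.93 and Rel at 8.58 ± 0.54 were the lowest and nearly touch. With CX-4945, Tnfaip3 stood at 13.9 ± 1.50, below Relb (30.3 ± 2.46), Nfkbid (29.2 ± 2.31) and Nfkbie (15.9 ± 1.90), and overlapped with Nfkbie only. Nfkbiz at 7.31 ± 0.82 was the lowest and Rel stood at 8.71 ± 0.33.

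The 5 subunit transcripts together summed to 299, 318 and 293 RPKM in the DMSO libraries and to 362, 339.6 and 385 in the CX-4945 libraries. The shares of Nfkb1, Rela and Rel separated the groups. Nfkb1 made up 37.3, 40.0 and 36.6% of the sum with DMSO and 41.8, 42.8 and 40.4% with CX-4945. Rela made up 22.4, 21.2 and 20.7% with DMSO and 18.7, 19.4 and 18.5% with CX-4945. Neither share overlaps between the groups, though those of Nfkb1 nearly touch (40.0% in DMSO library 3 and 40.4% in CX-4945 library 6). Rel made up 2.675 to 3.083% with DMSO and 2.244 to 2.669% with CX-4945, ranges that nearly touch. A share falls when other members of the sum rise, and the levels of Rela and Rel did not fall. Rela averaged 64.9 RPKM with DMSO and 68.3 with CX-4945, and Rel 8.58 and 8.71. The shares of Nfkb2 (28.0 to 30.4% and 27.0 to 30.4%) and of Relb (8.03 to 9.21% and 8.20 to 8.51%) overlap. The non-canonical transcripts (Nfkb2 and Relb) came to 60.7 ± 4.62% of the canonical ones (Nfkb1, Rel and Rela) with DMSO and to 59.0 ± 4.70% with CX-4945 (SD, n = 3). The 5 inhibitor transcripts summed to 0.565, 0.496 and 0.567 times the subunit transcripts in the DMSO libraries and to 0.437, 0.421 and 0.451 times in the CX-4945 libraries, ranges that do not overlap. The inhibitor sums themselves overlap, at 164 ± 5.79 RPKM with DMSO and 158 ± 15.3 RPKM with CX-4945 (SD, n = 3), while the subunit sums do not. These sums are over chosen genes and were not tested. The inhibitor sum counts Nfkbiz, whose product is a coactivator, so the ratio does not measure how far the subunits are restrained.

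**Figure D3:**
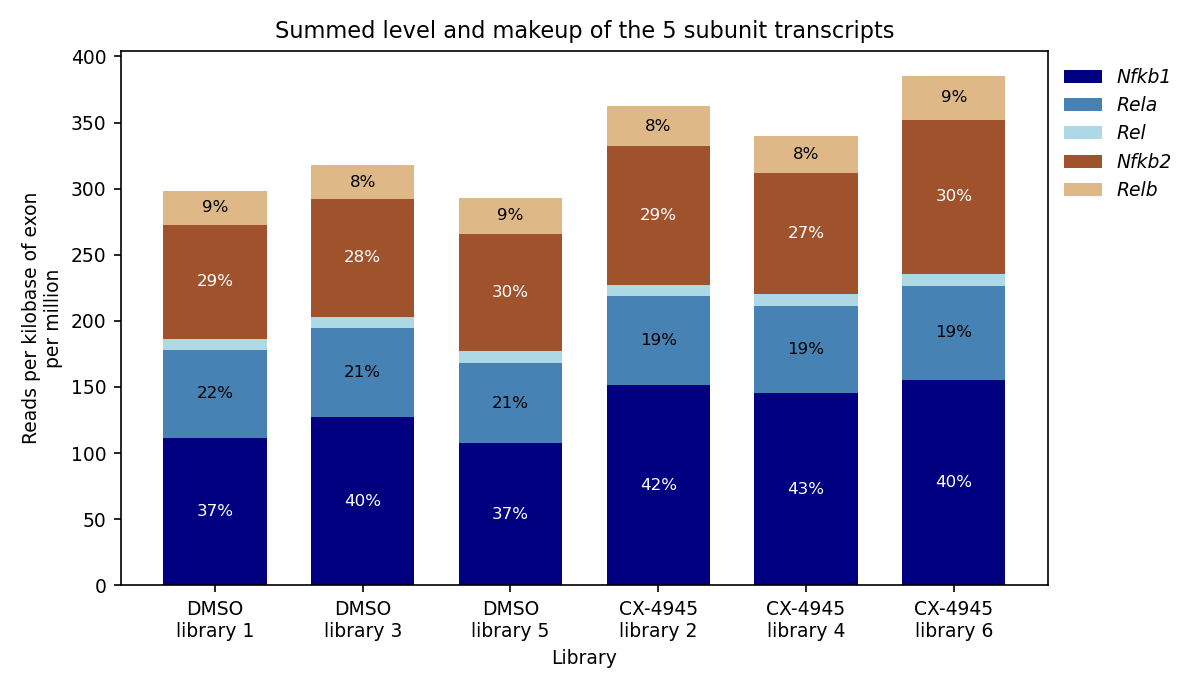
Summed level of the 5 subunit transcripts in each library, in RPKM (bar height, from 0), split by gene, with the share of each gene other than Rel printed in its segment. The CX-4945 bars are taller, 339.6 to 385 against 293 to 318 with DMSO, and the Nfkb1 segment takes a larger share in them.

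The rest of the pathway was read through lists of its parts, whose genes were chosen with earlier results of these data known. Each count of a list stands against the 30.6% of all genes tested that rose and the 31.3% that fell. Of 14 tested genes for other NF-kB inhibitors 3 rose and 5 fell, and the median log2 fold change was −0.13 beside −0.0029 over all genes tested. Bcl3, an atypical nuclear IkB like Nfkbiz and Nfkbid, fell from 228 ± 18.8 to 162 ± 13.0 CPM (SD, n = 3), 1.41-fold (edgeR adjusted p = 0.000942). Pdlim2, a ubiquitin ligase that acts on nuclear RelA, fell 1.35-fold (adjusted p = 0.00117). N4bp1, a suppressor of NF-kB signalling, rose from 122 ± 10.5 to 241 ± 20.0 CPM (1.98-fold, edgeR adjusted p = 4.49e-05), and Traf3, which keeps the non-canonical kinase NIK low, rose 1.20-fold (adjusted p = 0.00223). Nfkbib, which encodes IkB beta and was chosen after its values were seen, had a fold change of 0.970 (adjusted p = 0.610).

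Of the 22 genes for IKK and its upstream kinases, adaptors and ubiquitin enzymes 9 rose and 5 fell, with a list median of 0.08. Traf6, a ubiquitin ligase upstream of IKK, rose from 208.0 ± 12.3 to 324 ± 8.78 CPM (1.56-fold, edgeR adjusted p = 6.02e-05). Chuk, which encodes the kinase IKK alpha, rose 1.49-fold (adjusted p = 0.000242) and Map3k7, which encodes the IKK-activating kinase TAK1, 1.46-fold (adjusted p = 0.000244). Map3k8, whose product Tpl2 is held inactive by p105, fell from 93.4 ± 11.4 to 53.1 ± 4.62 CPM, 1.76-fold (adjusted p = 0.000217). Chosen after their values were seen, Ikbkb, which encodes IKK beta, had a fold change of 0.994 (adjusted p = 0.895), while Ikbkg, the scaffold NEMO, fell 1.29-fold and Map3k14, which encodes NIK, 1.41-fold.

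Of 10 genes listed for the route from the antigen receptor, whatever their sign of action, 6 fell and 2 rose. All genes tested had 31.3% and 30.6%, and the list median was −0.26. The count of fallers was 5 when library 1, 2, 3, 4 or 6 was left out. Cd28, the costimulatory receptor engaged in the culture, fell from 705 ± 27.0 to 365 ± 5.64 CPM (SD, n = 3; edgeR adjusted p = 1.47e-05). Malt1, a scaffold and protease between the T cell receptor and IKK, fell from 1375 ± 44.8 to 1071 ± 50.9 CPM, 1.28-fold (adjusted p = 0.000987). Its binding partner Bcl10, chosen after its values were seen, did not pass (log2 fold change 0.06). Plcg1, a phospholipase below the receptor, fell 1.34-fold (adjusted p = 0.000772), and its exons share 379 bases with those of the opposite-strand gene Zhx3. The 2 rises of this list were small (log2 fold change 0.15 for Pdpk1 and 0.25 for Map4k1, both chosen after their values were seen), and that of Pdpk1 was lost without library 1, 2, 4 or 6.

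Of 15 tested receptor genes of the TNF and IL-1 families and their adaptors 8 fell and 2 rose, with a list median of −0.25. When 1 library was left out, 6 to 9 fell and 1 to 2 rose. Tnfrsf9, the costimulatory receptor 4-1BB, had 184 ± 50.4 CPM with DMSO and 21.2 ± 5.22 with CX-4945, 8.67-fold lower (edgeR adjusted p = 3.17e-05). Cd27, another costimulatory receptor, fell 3.20-fold, Il1r1, the IL-1 receptor, 2.45-fold and Tnfrsf1a, the TNF receptor with a death domain, 1.64-fold (adjusted p at most 0.000107). The DMSO libraries of Tnfrsf9 vary widely, with an SD of 50.4 CPM, yet lie above all treated ones.

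Of 26 genes widely used as NF-kB targets 14 fell and 5 rose, with a list median of −0.21. When 1 library was left out, 11 to 13 fell and 5 to 6 rose. Many of these genes answer to other factors as well, and Tnfrsf9 and some others stand in more than 1 list. Lta, the cytokine lymphotoxin alpha, rose from 115 ± 19.7 to 274 ± 32.2 CPM (2.39-fold, edgeR adjusted p = 0.000102). Gadd45b, a stress-induced survival gene, rose 1.84-fold (adjusted p = 0.000183). Ccnd2, which encodes cyclin D2, fell from 719 ± 43.2 to 500.1 ± 26.3 CPM, 1.44-fold (adjusted p = 0.000256).

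**Figure D4:**
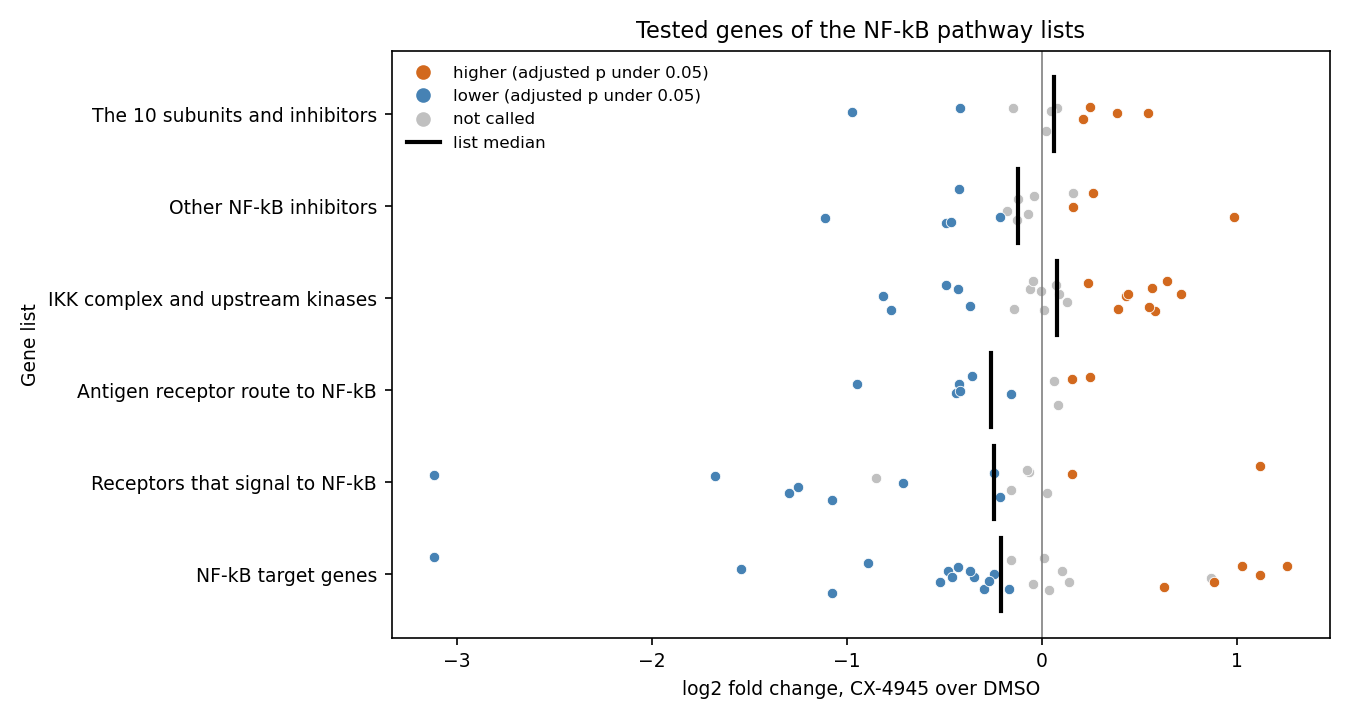
log2 fold change of CX-4945 over DMSO (horizontal axis) of each tested gene of the 10 subunits and inhibitors and of 5 pathway lists (rows, points spread vertically only to separate them), coloured by the edgeR call, with the list median as a black bar. The medians run from −0.26 for the antigen receptor route to 0.08 for IKK and its upstream enzymes, and Tnfrsf9, in the receptor and target lists, lies farthest left at −3.12.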

How the data were processed

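RNA-seq of 6 cultures, 3 with DMSO and 3 with CX-4945, was analysed from the table the authors deposited. RNA was extracted with Trizol and sequenced at Genewiz, per the labels' protocols. The submitters' processing notes name the build mm10. No aligner, annotation release or strand setting is stated in the labels or file headers. The deposited values used were whole-number counts of unique exon reads per gene, not normalized, per the file headers. Reads that fit several loci are not in these counts, so genes with near-identical copies are uncertain. Nfkb2, Bcl3, Plcg1, Ccnd2, Csnk2b and Eomes share exon bases with opposite-strand genes in GENCODE M21 and are uncertain while the strand setting is unknown. Columns name a group but no replicate number of the labels. Only 1 measure per library was used, and 84 other per-library columns were not. Gene starts count from 0 in the table, and 1 was added.

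The filter was filterByExpr (minimum count 10, minimum total 15) in edgeR 4.0.16 under R 4.3.3. Libraries were scaled by TMM (factors 0.971 to 1.02) and compared with glmQLFit and glmQLFTest, two-sided, with Benjamini-Hochberg adjustment over all genes. Each SE was obtained as the absolute log2 fold change divided by the root of the F statistic. Scripts were tested on simulated counts in which only a small part of the genes changed, unlike in these data. Alternatives used DESeq2 1.42.0, limma 3.58.1, other scalings and filters, and each library left out. Tables and figures were made with Python 3.11.15 (pandas 2.3.3, matplotlib 3.10.9). The 10 genes and the lists were chosen with earlier results of these data known. Of 128 listed genes, Otulin and Adgre1 had no row. The text names the 10 genes, up to 4 passing genes of each pathway list by smallest adjusted p, the CK2 subunits and the most abundant marker of each cell type, except that a few are not reported here. Other genes are named as chosen after their values were seen.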

Additional observations from a re-analysis of the deposited data

How the results depend on the processing

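Under RLE or upper-quartile scaling, DESeq2, limma-voom, no filter and a filter of 5 CPM in 3 libraries, each of the 10 genes kept its direction and its side of the threshold. Fits to total exon reads and a comparison with intron reads were intended but are not reported here. No column, including those used, could be matched to a single sample of the labels. No paired analysis was possible because the columns carry no replicate numbers of the labels. Leaving out each library in turn gave 6319 to 7993 genes called, 2 to 4 of the 10 genes higher and 2 to 3 lower. The log2 fold change then ran from 0.34 to 0.46 for Nfkb1, 0.16 to 0.33 for Nfkb2, 0.15 to 0.27 for Relb, 0.49 to 0.61 for Nfkbid, −0.50 to −0.34 for Nfkbiz and −1.05 to −0.90 for Tnfaip3. It ran from 0.025 to 0.10 for Rela, −0.030 to 0.057 for Rel, −0.031 to 0.11 for Nfkbia and −0.23 to −0.062 for Nfkbie. Risers numbered 1 to 2 in both the antigen receptor and the receptor list. The cause of these shifts was not tested. With 3 cultures per group, changes as small as those of Nfkb2 and Relb depend on single libraries.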

Other observations

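Among the treated libraries the NF-kB genes shared an order that was noticed after their values were seen. For 9 of the 10 genes CX-4945 library 4 had the lowest and library 6 the highest CPM of the 3, whether the gene had risen (Nfkb1), fallen (Tnfaip3) or not passed (Nfkbia). Rel was the exception. Over all 12502 genes tested 25.1% had that order. What sets these libraries apart was not tested.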
